A study of Mus musculus with 2 samples.

Results

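The genes of ciliary transport and of the microtubule motors were examined in the adult mouse retina. They were chosen by symbol, as Ift or Bbs followed by a number, Kif followed by a number, or a name that starts with Dync1 or Dync2. The rule itself uses no measured value, but the set was chosen with earlier results of these data known. The rule found 68 of the 25778 genes counted, namely 14 subunits of intraflagellar transport (IFT), 8 Bardet-Biedl syndrome (BBS) genes, 36 kinesins, 7 dynein chains, the kinesin-binding protein Kif1bp and 2 antisense transcripts, Ift88os and Kif16bos, which are neither motors nor IFT subunits. Single-cell RNA sequencing had been carried out on retinas of 30-day-old mice, with 1 control animal of genotype Chx10Cre, called Ptbp1-Ctrl, and 1 knockout animal of genotype Chx10-Cre;Ptbp1lox/lox, called Ptbp1-KO, each giving 1 library. Both genotypes carry the Chx10-Cre transgene, which expresses a Cre-GFP fusion in retinal progenitors, and in Ptbp1-KO the floxed promoter and first exon of Ptbp1, which encodes a splicing regulator, are removed in the cells that arise from those progenitors. With 1 library per genotype nothing below has a replicate check, no p-value is given, and genotype, animal and library cannot be told apart.

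A photoreceptor carries a single modified cilium, the outer segment, which is renewed throughout life, so that membrane proteins made in the cell body pass continuously through a narrow connecting cilium. Kinesin-2 carries IFT trains outward along its microtubules and cytoplasmic dynein-2 carries them back. The BBSome, a coat-like complex of BBS proteins, rides on these trains and removes proteins from the cilium. Kinesin-1, kinesin-3 and cytoplasmic dynein-1 work outside the cilium, on axonal and cytoplasmic cargo, and a further set of kinesins builds the mitotic spindle. Inherited loss of IFT or BBS genes is known for retinal degeneration.

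Levels are given as CPM, the unique molecular identifiers (UMIs) of a gene per 1000000 UMIs summed over all cells of a type in a library. The comparison used both photoreceptor types (rods and cones), Müller glia (MG), bipolar cells (BC) and amacrine cells (AC), which held between 1425527 and 14494233 UMIs per library. Of the 68 members, 58 had at least 100 UMIs over these 5 types in both libraries together. The other 10 were Kif7, Kif11, Kif18b, Kif19a, Kif23, Kif26a, Kif28, Kif2c and both antisense transcripts. As a check of the labels, Ptbp1 was lower in Ptbp1-KO in each of the 5 types, with 24 to 294 UMIs against 1 to 6. The marker genes of each of these types were highest in the type of that name in both libraries, which includes all 7 rod genes and all 6 cone genes. Rod genes were still found in every type, at a median of 23.4% and 23.8% of the rod level in cones, 14.2% to 15.3% in BC, 17.2% to 17.5% in AC and 13.7% to 15.9% in MG. Cells labelled retinal ganglion cells (RGC) held them at 61.5% and 68.6% of the rod level, and neither RGC nor horizontal cells (HC) held more than 213051 UMIs in a library, so neither type was compared gene by gene. The libraries shared 63 cell barcodes.

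The promoters of the members were searched for 2 sequence motifs that the choice of members did not use. One was TAATCC, bound by the photoreceptor homeodomain factors CRX and OTX2, and the other was the X-box bound by RFX factors, which are known regulators of ciliary genes, spelled here GTNNCCNNNGNAAC. Both were looked for on both strands of the RefSeq promoters of GRCm38.p6, which run from 250 bases before the transcription start to 50 bases after it, and 54 of the 68 members had one. The X-box letters were present in 9 of these 54 (16.7%), against 2.49% of all 27025 genes with a promoter and 3.27% of the genes with at least 100 UMIs. IFT and BBS genes held 5 of the matches in 19 promoters, and kinesins and dyneins 4 in 34. Among the members at least 2-fold higher in photoreceptors, as defined below, 5 of 12 promoters held the letters, and among the other members with enough UMIs 2 of 35. The spelling was settled after matches to several had been seen, and the stricter GTTNCCNNNGNAAC left Bbs7 and Kif18b as the only members with a match, 3.70% against 0.936% of all genes.

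The X-box matches of the 7 members with enough UMIs are shown in windows of 30 bases on the strand of the gene, with the motif in capitals. The fixed letters of the motif are shared because the search required them. The Bbs1 window lies at chr19:4906605-4906634 on the minus strand, the Bbs4 window at chr9:59353464-59353493 on the minus strand, and the Bbs7 window at chr3:36613489-36613518 on the minus strand. On the plus strand are the windows of Ift22 at chr5:136908079-136908108 and chr5:136908109-136908138, Ift57 at chr16:49699199-49699228, Kif18a at chr2:109280660-109280689 and Kif9 at chr9:110476959-110476988.
Bbs1: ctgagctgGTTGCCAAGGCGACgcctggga
Bbs4: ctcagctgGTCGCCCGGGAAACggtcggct
Bbs7: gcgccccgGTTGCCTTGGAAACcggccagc
Ift22, first match: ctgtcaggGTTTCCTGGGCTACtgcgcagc
Ift22, second match: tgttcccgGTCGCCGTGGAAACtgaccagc
Ift57: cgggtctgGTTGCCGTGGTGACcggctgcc
Kif18a: ccgcgcgcGTTGCCACGGCGACgcccagga
Kif9: ggcttcctGTTGCCATGGCGACtgtgtaca
In Bbs1, Ift57, Kif18a, Kif9 and the first match of Ift22 the motif reads on the opposite strand, and in Bbs7 it reads on both, since the letters are nearly their own reverse complement. Counted from the transcription start as 0, the first base of the match was at -121 in Bbs7, -87 in Ift57, -70 in Kif18a, -63 and -33 in Ift22, 1 in Bbs1, 9 in Kif9 and 23 in Bbs4. Bbs1, Bbs4, Bbs7, Kif9 and Kif18a were called higher in photoreceptors, whereas Ift22 and Ift57 were below the 2-fold limit.

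TAATCC was no more frequent among members than elsewhere, in 3 of 54 promoters (5.56%) against 8.14% of all genes. The 3 were Bbs1, Kif9 and Kif5c, and none of these matches overlapped an X-box. Kif5c, a neuronal kinesin-1 heavy chain that was nearly absent from photoreceptors, is shown with Bbs7 because they fell on opposite sides of the photoreceptor comparison. Their 250 bases upstream of the start are at chr3:36613390-36613639 on the minus strand for Bbs7, with the X-box in capitals, and at chr2:49619036-49619285 on the plus strand for Kif5c, with TAATCC in capitals.
Bbs7: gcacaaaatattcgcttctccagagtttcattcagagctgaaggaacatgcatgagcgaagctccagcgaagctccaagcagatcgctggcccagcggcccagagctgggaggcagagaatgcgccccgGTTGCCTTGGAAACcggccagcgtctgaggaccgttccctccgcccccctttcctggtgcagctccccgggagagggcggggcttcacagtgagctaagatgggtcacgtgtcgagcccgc
Kif5c: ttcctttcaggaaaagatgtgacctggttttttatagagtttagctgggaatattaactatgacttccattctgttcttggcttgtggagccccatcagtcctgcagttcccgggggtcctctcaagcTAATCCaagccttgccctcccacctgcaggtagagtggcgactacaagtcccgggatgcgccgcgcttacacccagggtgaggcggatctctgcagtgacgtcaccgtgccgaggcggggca

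Photoreceptors were first compared with the other large types. By the mean of rods and cones, 6 of 8 BBS genes were higher, as were 2 of 14 IFT genes and the kinesin-2 subunit Kif3b. The neuronal motor genes Kif5a, Kif5c and Dync1i1 were low in rods and cones and highest in AC. A call on this mean can rest on rods. Bbs7 stood at 71.1 and 56.8 CPM in cones, against 63.9 and 56.0 CPM in AC. With cones alone the mean log2 ratios of Bbs7 and Bbs9 were 0.43 and 0.76. The measure was the log2 of the mean CPM of rods and cones over the mean CPM of BC, AC and MG, taken in each library, and a member was called when it passed 2-fold in the same direction in both libraries. By this rule 13 of the 58 members were higher in photoreceptors, against 9.36% of the 14892 genes with enough UMIs, and 5 of 58 were lower, against 24.3% of all genes. In 19 of 58 all 4 photoreceptor values lay above all 6 values of the other types, a pattern found in 12.2% of all genes. In 4 of 58 all photoreceptor values lay below the others, against 13.2% of all genes. The median log2 ratio of the members was 0.48 in Ptbp1-Ctrl and 0.65 in Ptbp1-KO, beside -0.09 and -0.07 over all genes.

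**Figure D1:**
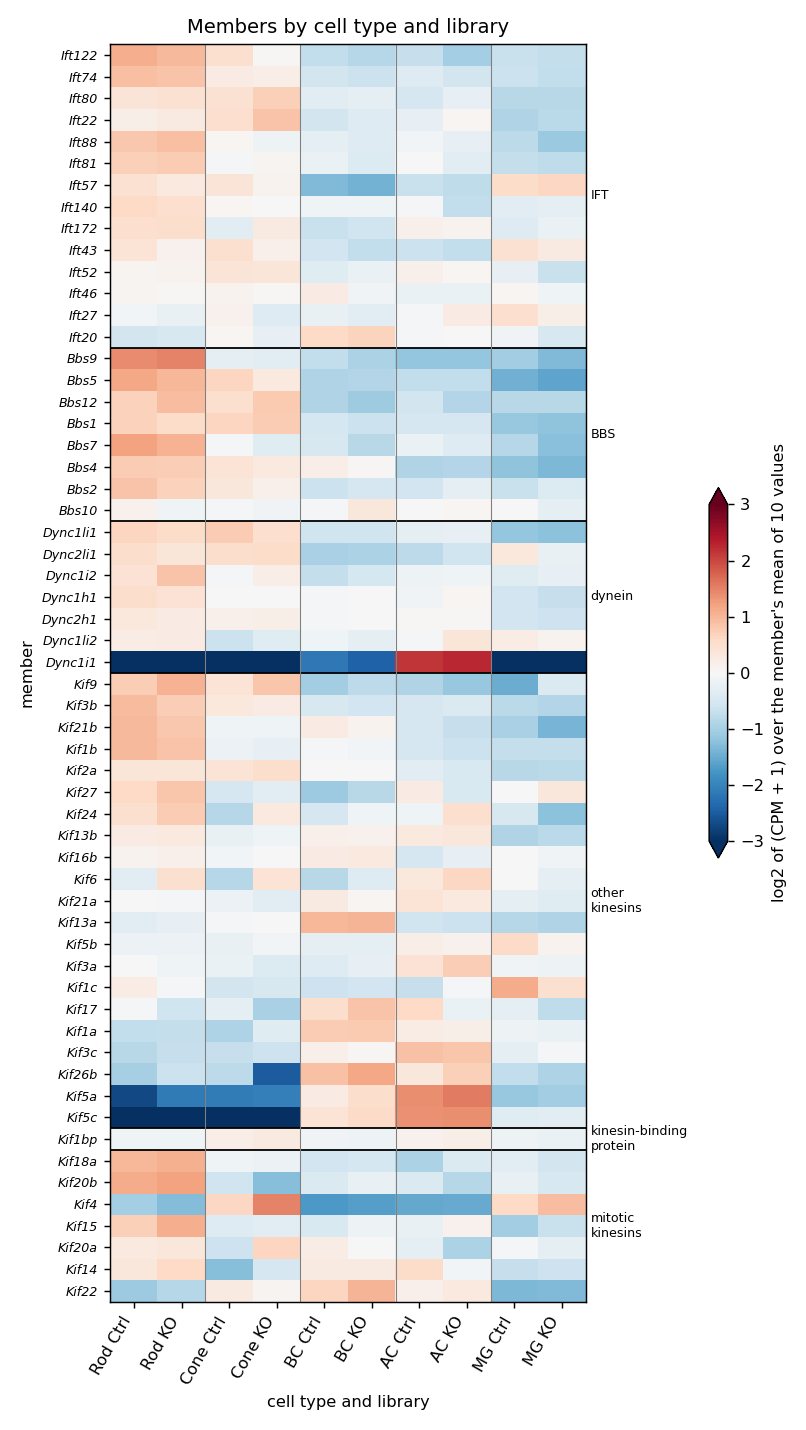
Heat map of the 58 members with enough UMIs (rows, grouped by family) in 5 cell types of both libraries (columns). Colour gives the log2 of the CPM plus 1 over the member's mean of the 10 values, with the scale ending at 3 in each direction. Most BBS and IFT genes are red in the rod columns, and Dync1i1, Kif5a and Kif5c are blue in rods and cones and red in AC.

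The BBS genes had the highest ratios of any family, with 6 of 8 called higher, none lower and medians of 1.33 and 1.39. Bbs9, a BBSome subunit at chr9:22475715-22888280 on the plus strand, stood at 1009 CPM in rods and 312 CPM in cones of Ptbp1-Ctrl, against 228 CPM in BC, 169.7 CPM in AC and 185 CPM in MG. In Ptbp1-KO it stood at 1066 CPM in rods, 307 in cones, 196 in BC, 171 in AC and 151 in MG. Both rod values were thus far above all others, and the log2 photoreceptor ratios were 1.77 and 1.99. In cones the Bbs9 level was 31.0% and 28.8% of the rod level. The range over the 7 rod marker genes in cones was 22.2% to 25.3% in Ptbp1-Ctrl and 20.8% to 28.5% in Ptbp1-KO. In AC the Bbs9 level was 16.8% and 16.0% of the rod level, within the range over the 7 rod marker genes there (16.2% to 19.2% in Ptbp1-Ctrl and 13.7% to 19.2% in Ptbp1-KO). Within AC the level was 232 and 214 CPM in cluster 6 and 113 and 131 CPM in cluster 14. The part of free rod RNA in these values was not tested.

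Bbs5, another BBSome subunit at chr2:69647171-69667571 on the plus strand, was shared by rods and cones. Its levels in Ptbp1-Ctrl were 217 CPM in rods, 151 in cones, 50.5 in BC, 56.7 in AC and 34.9 in MG. In Ptbp1-KO they were 191 CPM in rods, 118 in cones, 51.6 in BC, 57.0 in AC and 31.5 in MG. Neither photoreceptor type overlapped the other 3, and the ratios were 1.96 and 1.73. The MG level was 16.0% of the rod level in Ptbp1-Ctrl, within the range of the rod marker genes there (14.4% to 16.6%), and 16.4% in Ptbp1-KO, above it (12.1% to 15.3%).

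Bbs12 belongs to the chaperonin-like BBS proteins, which assist assembly of the BBSome. Its levels were 50.9 CPM in rods and 44.1 in cones of Ptbp1-Ctrl and 59.9 and 54.0 CPM in those of Ptbp1-KO, while the other 6 values ran from 14.5 to 21.0 CPM. It overlaps Cetn4 on the opposite strand and Gm43439 on the same strand, and how reads in such overlaps were assigned is not given in the sources used here. Bbs10, the other measured member of this kind, was level across types at 6.10 to 9.96 CPM, with log2 ratios of 0.07 and -0.20. Bbs2 had the lowest ratio of the BBSome by the mean of both libraries, 1.28 and 0.87, which left it outside the limit in Ptbp1-KO although its values did not overlap. Bbs1, Bbs4 and Bbs7 were all called higher, with ratios from 1.11 to 1.46, and Bbs4 overlaps Adpgk on the opposite strand.

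IFT genes differed by less: 12 of 14 had a mean ratio above 0, beside 46.0% of all genes, 2 passed 2-fold and none was called lower. Ift20 and Ift27 had mean ratios below 0. Ift122, a core subunit of the IFT-A complex that serves return transport, was the highest, at chr6:115853470-115926699 on the plus strand. It stood at 68.8 CPM in rods and 45.3 in cones of Ptbp1-Ctrl, and at 63.8 and 33.0 CPM in Ptbp1-KO. The other types lay between 15.3 and 19.6 CPM, so the groups were separate, with log2 ratios of 1.56 and 1.49. Ift74, which binds tubulin cargo together with Ift81 in the IFT-B complex, passed the limit with 1.15 and 1.23. Ift80 was just outside it, with 0.98 and 1.04, and Bbs4, with 1.11 and 1.16, was the member closest to the limit on the inside.

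Ift20, an IFT-B subunit that also works at the Golgi apparatus, was the IFT gene with the lowest ratio, -0.41 and -0.50. It was highest in BC, at 194 and 205 CPM, against 87.4 and 92.1 CPM in rods and 132 and 108 CPM in cones. Ift57 was as high in MG (57.7 and 60.2 CPM) as in rods (53.5 and 48.0 CPM) and lowest in BC (14.9 and 13.8 CPM). Ift43, the lowest of IFT-A by the mean of both libraries, was shared in the same way, with 102 CPM in rods, 107 in cones and 106 in MG of Ptbp1-Ctrl against 51.5 in BC and 48.6 in AC. Ift22, a Rab-like subunit, was highest in cones in both libraries, at 39.0 and 50.5 CPM against 31.2 and 32.9 CPM in rods.

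Kinesin-2, the outward motor of IFT, was split among its subunits. Kif3b, at chr2:153291413-153333390 on the plus strand, was higher in photoreceptors, with 115 and 99.4 CPM in rods, 73.3 and 70.1 in cones, and 31.7 to 43.6 CPM in the other types. Its log2 ratios were 1.28 and 1.16 and its values did not overlap. Kif3a, its partner in the motor, was not higher: rods held 39.8 and 36.7 CPM, cones 35.0 and 30.2 CPM, and AC 54.7 and 67.4 CPM. Kif3c, a neuronal alternative to Kif3b, was lower in photoreceptors, with 14.3 to 16.8 CPM in rods and cones against 21.7 to 49.1 CPM in the other types. Kif17 had 269 UMIs in all and ratios of -0.61 and -1.22.

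**Figure D2:**
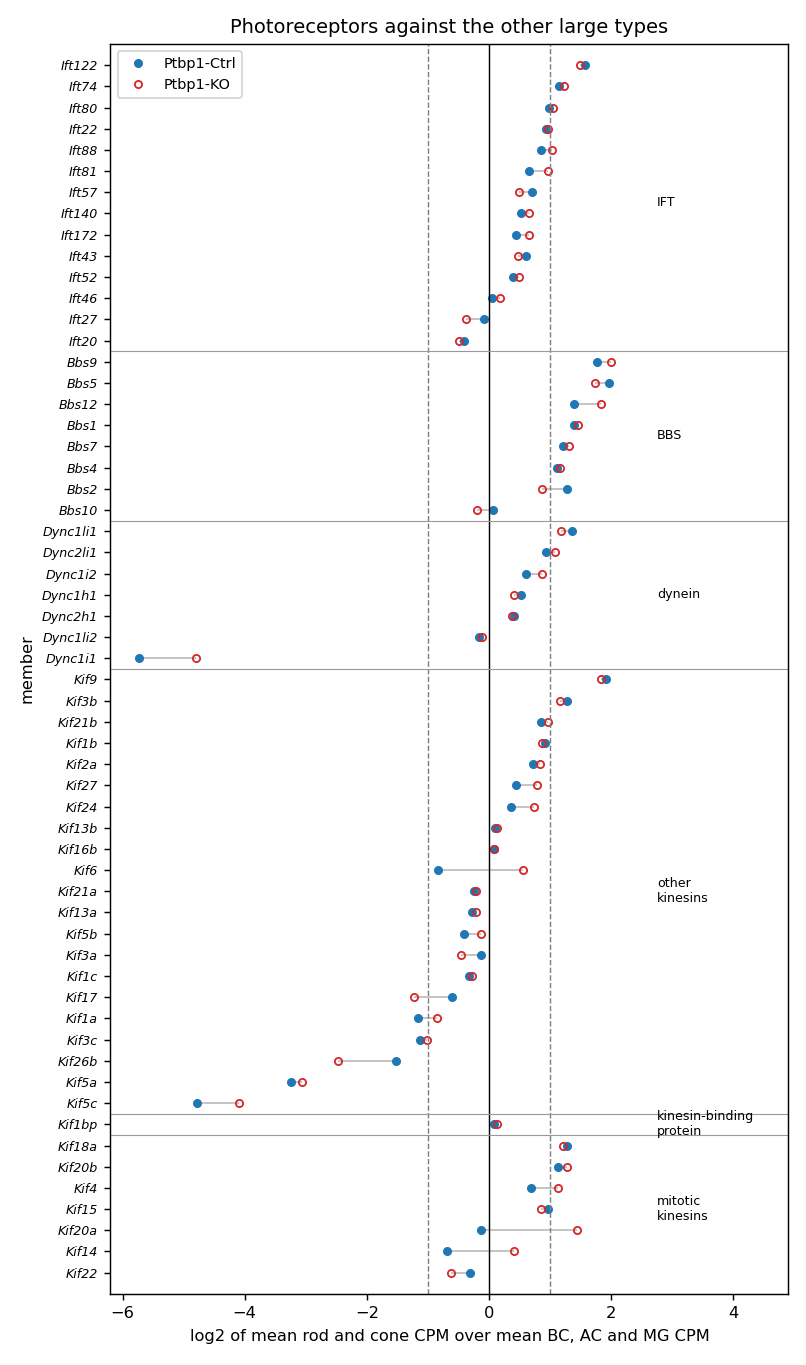
Log2 of the mean rod and cone CPM over the mean BC, AC and MG CPM for each of the 58 members (rows, grouped by family), with Ptbp1-Ctrl as filled and Ptbp1-KO as open circles. Dashed lines mark 2-fold; Bbs9, Bbs5 and Kif9 lie farthest to the right, and Kif5a, Kif5c and Dync1i1 farthest to the left, between -5.73 and -3.07.

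Kinesin-1, the main motor of axonal transport, is made from 3 heavy chain genes, and the neuronal ones were nearly absent from photoreceptors. Kif5c, at chr2:49619298-49774778 on the plus strand, was found at 5.37 CPM in rods and 3.44 in cones of Ptbp1-Ctrl, against 102 in BC, 201 in AC and 59.6 in MG. In Ptbp1-KO it was at 7.80 CPM in rods, 7.01 in cones, 115 in BC, 204 in AC and 60.6 in MG. The order AC, BC, MG and then photoreceptors was the same in both libraries, with log2 ratios of -4.78 and -4.09. Kif5a followed the same order, with 2.30 to 4.21 CPM in rods and cones, 24.7 and 30.2 in BC, 55.7 and 62.7 in AC and 8.80 and 9.44 in MG. Kif5b, the broadly expressed heavy chain, was level by comparison, between 136 and 243 CPM in all 10 values. Its highest value was that of MG in Ptbp1-Ctrl.

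Thinned to 1000 UMIs per cell, 17.3% of AC in Ptbp1-Ctrl (95% interval 14.4 to 20.5) and 17.7% in Ptbp1-KO (15.3 to 20.4) had a Kif5c UMI. The shares in BC were 10.1% and 10.2%, in MG 5.35% and 5.54%, and in rods 0.525% and 0.615%. Without thinning the shares were 36.8% and 47.1% in AC and 0.686% and 1.18% in rods. Median depth was 1088 and 1288 UMIs in rods and 2600.5 and 3928 in AC, and thinning left out 4155 and 3126 rods but 51 and 53 AC.

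Dync1i1, an intermediate chain of dynein-1 at chr6:5725639-6028039 on the plus strand, was the member most unlike the rest. AC held 595 and 645 CPM, followed by BC at 29.2 and 24.2 CPM. Rods held 5.60 and 9.25 CPM, cones 2.29 and 7.01 CPM and MG 5.25 and 13.2 CPM. The log2 photoreceptor ratios were -5.73 and -4.81, but since MG was as low as rods, the groups overlapped. After thinning, 39.4% (35.5 to 43.3) and 40.0% (36.8 to 43.3) of AC had a UMI, against 0.491% and 0.745% of rods.

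Within AC, Dync1i1 differed widely between the deposited clusters. Cluster 6 held 148 and 172 CPM, cluster 14 held 561 and 681 CPM, and cluster 15 held 1527 and 1547 CPM. The order was the same in both libraries. Clusters had been drawn from the same cells and genes, so this is a description of them and no test. Among BC clusters it was lowest in cluster 13 of Ptbp1-Ctrl (1.31 CPM) and cluster 5 of Ptbp1-KO (4.04 CPM), and highest in clusters 12 (90.6 and 65.9 CPM) and 18 (81.2 and 75.6 CPM).

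Dynein-1 also includes the widely used intermediate chain Dync1i2, which was the reverse: 375 and 506 CPM in rods, 268 and 319 in cones, and 169.7 to 254 in the other types. The light intermediate chain Dync1li1, which links dynein to its cargo adaptors, passed 2-fold in photoreceptors, with 159 and 149 CPM in rods, 175 and 145 in cones and 42.9 to 85.5 CPM elsewhere. Its paralog Dync1li2 did not differ in this way, with ratios of -0.16 and -0.12. The heavy chain Dync1h1 had ratios of 0.52 and 0.40. Dynein-2, the return motor of IFT, has 2 members here, and both lay above the other types without overlap but were not called. Dync2li1, at 0.94 and 1.08, passed 2-fold in Ptbp1-KO only, and the heavy chain Dync2h1 was at 0.41 and 0.38.

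**Figure D3:**
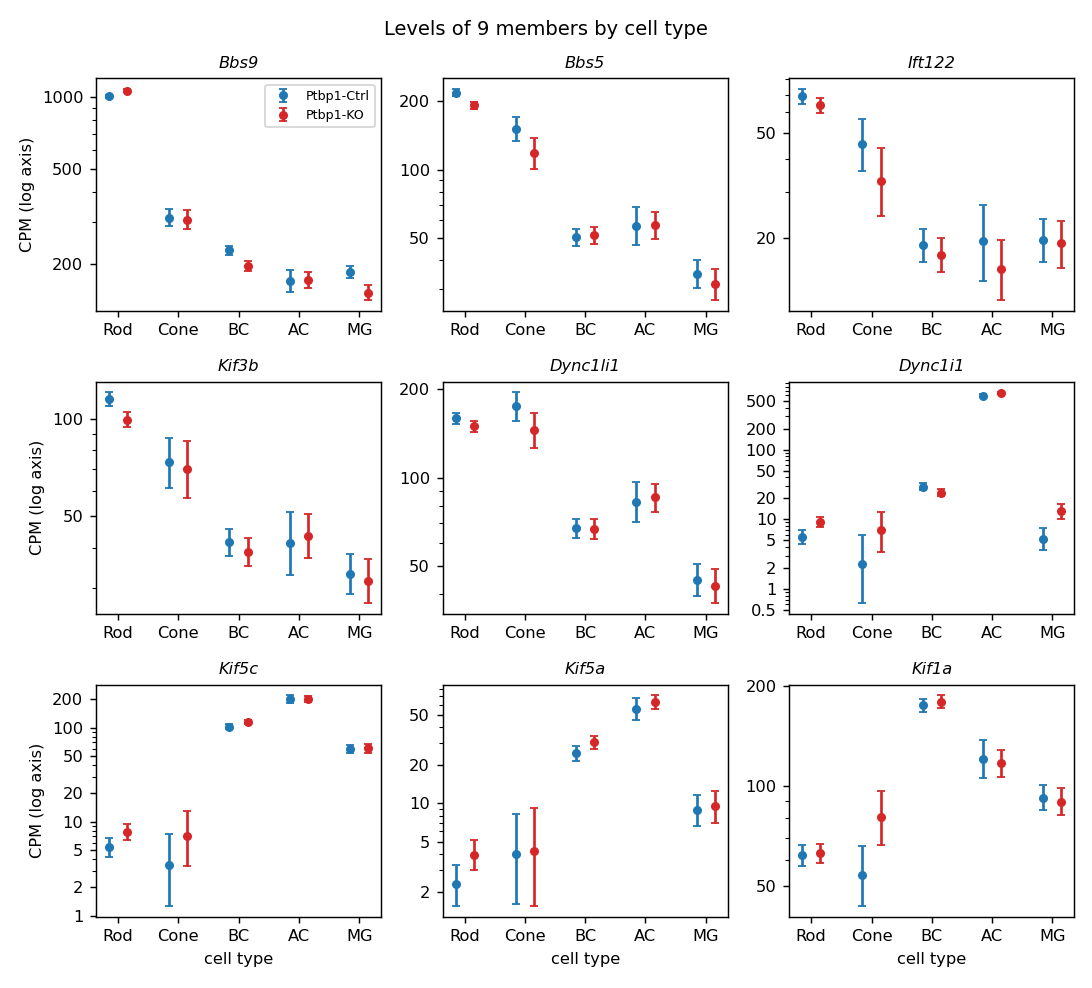
CPM (log axis) of 9 members in 5 cell types, Ptbp1-Ctrl in blue and Ptbp1-KO in red, with exact 95% Poisson intervals that cover counting error only. Bbs9, Bbs5, Ift122 and Kif3b are highest in rods, Dync1li1 in both photoreceptor types, Dync1i1, Kif5c and Kif5a in AC, and Kif1a in BC.

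The kinesin-3 motors, carriers of vesicles and organelles, were not called in either direction. Kif1a, the motor of synaptic vesicle precursors, came closest, with 53.9 to 80.7 CPM in rods and cones, 89.9 and 92.4 in MG, 117 and 121 in AC and 175 and 179.5 in BC. Its values did not overlap, and the ratios were -1.16 and -0.85. Kif1b, at chr4:149176319-149307693 on the minus strand, was highest in rods at 1504 and 1381 CPM, but cones at 675 and 645 CPM lay below BC at 742 and 717 CPM. Kif13a, which moves endosomal cargo, was highest in BC at 314 and 319.9 CPM, where it was lowest in clusters 12 (104 and 101 CPM) and 13 (119 and 93.6 CPM) and highest in cluster 10 (576 and 584 CPM). In kinesin-4 the ratios ran from -0.23 on average in Kif21a to 0.91 in Kif21b, and none was called.

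Apart from Kif22, with 2072 UMIs, the mitotic kinesins had at most 766 UMIs. The summed level of 4 markers of division was 1.53 to 8.04 CPM in the 5 types. Of 11 such kinesins 7 had enough UMIs and 2 were called higher in photoreceptors. Kif18a, a motor of chromosome alignment, stood at 18.5 and 19.7 CPM in rods, 8.02 and 7.72 in cones and 4.09 to 6.77 in the other types. It overlaps Mettl15 on the opposite strand. Kif20b, a motor of cytokinesis, was at 7.90 and 8.62 CPM in rods but at 1.72 and 0.701 CPM in cones, the latter from 3 and 1 UMIs, and with cones alone its ratio turned to -0.91. Kif22 was the lowest of the group by the mean ratio of both libraries, with 14.3 and 17.0 CPM in rods, 38.4 and 33.7 in cones and 50.8 and 65.6 in BC. Among the remaining kinesins, Kif9, known from motile cilia and sperm tails, had ratios of 1.91 and 1.84, with 15.5 to 24.6 CPM in photoreceptors and 3.39 to 8.26 CPM elsewhere. Kif26b was the lowest, with 1.84 and 2.62 CPM in rods and 9.40 and 11.5 CPM in BC, most of it in cluster 9 at 32.7 and 45.6 CPM.

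Ranked by type, 24 of 58 members were highest in rods in both libraries, against 18.7% of all genes. AC led for 8 of 58, against 17.3% of all genes, and these were Dync1i1, Kif3a, Kif3c, Kif5a, Kif5c, Kif6, Kif13b and Kif21a. Cones led for 7, against 10.9% of all genes, and BC for 6, against 9.29%. MG led for 2, Ift57 and Kif1c, against 19.9% of all genes. The leading type differed between libraries for 11, against 24.0%.

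The other genes of the same machines, from lists that carry other symbols, gave these values. Over all genes, 9.36% were called higher and 24.3% lower. Of the IFT, BBS and dynein-2 subunits under other names, 22 of 23 were measured, 21 had enough UMIs, 6 were called higher and 2 lower, and the median ratios were 0.72 and 0.71. Arl6, the small GTPase that recruits the BBSome to membranes, led with 2.23 and 2.30, from 317 and 304 CPM in rods, 446 and 383 in cones and 50.5 to 96.0 in the other types. Ttc8, the BBSome subunit known as BBS8, had 1.47 and 1.62, and Ttc26, an IFT-B subunit, 1.31 and 1.84. Tulp3, an adaptor that brings membrane proteins into cilia with IFT-A, was the reverse, at 149 and 122 CPM in MG and 3.38 to 10.9 CPM in rods and cones.

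Of 25 genes of the transition zone and of ciliary cargo, 14 were called higher, with medians of 1.08 and 1.18. In 19 the photoreceptor values lay above all others, against 12.2% of all genes. Tulp1 and Rpgrip1, both needed for the outer segment, had mean ratios of 2.57 and 2.28. The dynein light chains and dynactin, which serve all dynein-1, gave a median near 0, -0.01 and 0.01 over 23 genes, with 2 higher and 1 lower. Of 12 kinesin partners 3 were higher and 1, Mapk8ip1, lower.

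The count of members called higher was 22 after subtracting a background with the profile of the whole library and 8 with cones alone. The count without overlap was 10 when RGC and HC were added to the other types. The share of all genes under these settings is not given here. In cones alone, 5 of those 8 were among the 13 members.

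Cones were then compared with rods, which both build an outer segment. No member was at least 2-fold higher in cones in both libraries, of 52 with at least 100 UMIs over the 2 types, beside 6.81% of all genes. In rods 7 of 52 were at least 2-fold higher, beside 6.14% of all genes. They were Bbs7, Bbs9, Kif1b, Kif15, Kif18a, Kif20b and Kif27.

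Bbs9 differed most among the well counted ones, with log2 cone over rod ratios of -1.69 (95% interval -1.82 to -1.57) and -1.80 (-1.94 to -1.66). At 1000 UMIs per cell, 53.7% and 58.6% of rods had a Bbs9 UMI, against 23.8% and 26.8% of cones, and 64.2% and 71.8% against 44.9% and 50.8% without thinning. Bbs7, also a BBSome subunit, stood at 172 and 154 CPM in rods and 71.1 and 56.8 CPM in cones. The BBSome did not move as 1 unit, since Bbs1 had ratios of -0.05 (-0.35 to 0.24) and 0.21 (-0.11 to 0.52). The Kif1b ratios were -1.16 (-1.24 to -1.07) and -1.10. Kif27, with 3 UMIs in cones of each library, had intervals that reached 0.12.

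Kif22, a chromosome-binding kinesin, was the member most shifted to cones among those with enough UMIs, with a log2 ratio of 1.42 in Ptbp1-Ctrl and of 0.98 (0.50 to 1.43) in Ptbp1-KO, the latter just under 2-fold. With cells thinned to 1000 UMIs the count of rod-higher members was 3 rather than 7, and Bbs9 and Kif1b were the 2 of the 7 among them.

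Rods themselves varied between the 4 deposited rod clusters, in parallel in both libraries. Bbs9 was at 1441 and 1422 CPM in cluster 0, 1298 and 1348 in cluster 1, 856 and 837 in cluster 2 and 347 and 275 in cluster 3. Kif1b was at 1861 and 1602 CPM in cluster 0 and at 908 and 849 CPM in cluster 3. Of 50 members with at least 100 UMIs in clusters 0 and 3, 34 were higher in cluster 0 in both libraries, beside 59.1% of all 10251 genes so counted, and 12 were lower in both, beside 32.1%. Dync1h1 was the member most shifted to cluster 3 in Ptbp1-Ctrl, with log2 ratios of -1.07 and -1.36 for cluster 0 over cluster 3.

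Members that span more of the genome were more shifted to cluster 0, with a Spearman correlation across the 50 members of 0.61 in each library, and across 10131 genes of 0.53 in each. The median ratio was 0.59 in both libraries for the members and 0.43 and 0.42 for all genes. These points share the same cells and the correlation is a description. Malat1, a nuclear noncoding RNA, was at 35006 and 41006 CPM in cluster 0 against 7300 and 6883 CPM in cluster 3, and the median mitochondrial share in Ptbp1-Ctrl was 0.662% against 5.12%. Their part in the member values was not tested. The photoreceptor ratio of the 58 members had a correlation of -0.12 with span.

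**Figure D4:**
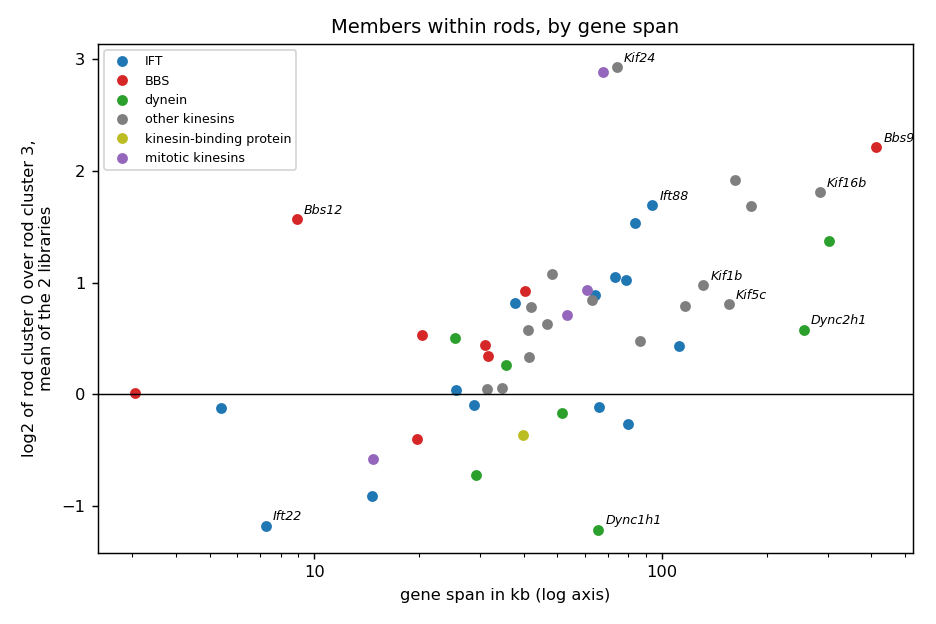
Log2 of the CPM in rod cluster 0 over rod cluster 3, averaged over both libraries, against the genomic span of the gene in kb (log axis) for 50 members, coloured by family. Kif24 and Kif15 lie highest, followed by Bbs9, which has the longest span, and Ift22 and Dync1h1 lie lowest.

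The last comparison was that of the genotypes, Ptbp1-KO against Ptbp1-Ctrl, within each type. Members were about as high in both libraries, and 3 pairs of a member and a type passed 1.5-fold. They were 1 of 51 in rods (6.69% of all genes), none of 36 in cones (4.07%), none of 51 in BC (3.27%), 1 of 42 in AC (3.68%) and 1 of 44 in MG (4.96%). The median log2 ratio of the members was 0.01 in rods, -0.02 in cones, 0.00 in BC and AC and -0.06 in MG. All 3 pairs rest on few UMIs and none was past the fold among members with at least 400 UMIs in the pair. The count of pairs rose several-fold after thinning and after background subtraction, as given in the section on processing.

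In rods, Dync1i1 was higher in Ptbp1-KO, 9.25 CPM (134 UMIs) against 5.60 CPM (73 UMIs). The log2 ratio was 0.72 (95% interval for counting error 0.30 to 1.16), and 0.31 to 0.72 over the settings tried. Kif5c, which like it is highest in AC, was at 0.54 (0.10 to 0.99) in rods. AC held 5.97% of all control UMIs and 10.9% of those in Ptbp1-KO, and all 7 AC marker genes were higher in rods of Ptbp1-KO, with a summed level of 59.7 against 75.5 CPM and a log2 ratio of 0.34. Their part in the rod values was not tested. In MG, Dync1i1 went from 31 to 67 UMIs, a ratio of 1.33 (0.69 to 1.99), below the minimum of 100 UMIs. In BC it went the other way, from 286 to 248 UMIs, a ratio of -0.27 (-0.52 to -0.02). All 7 AC marker genes were higher in BC of Ptbp1-KO too, with a log2 ratio of 0.56 for their summed level.

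In AC, Ift140, an IFT-A subunit at chr17:25016085-25099495 on the plus strand, was lower in Ptbp1-KO, at 16.1 against 27.1 CPM and a log2 ratio of -0.75 (-1.31 to -0.20), which ran from -1.46 to -0.72 over the settings tried. The ratio was -1.17 in cluster 6, -0.85 in cluster 14 and -0.10 in cluster 15, from 12 to 25 UMIs per library and cluster. It overlaps Tmem204 on the opposite strand. In MG, Kif1c, a kinesin-3 that moves from the Golgi apparatus, was lower, at 18.7 against 29.5 CPM and -0.66 (-1.03 to -0.29), which ran from -0.78 to -0.33 over the settings tried. MG was also its leading type in both libraries.

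Dync1i2 in rods was short of 1.5-fold but well counted. Control rods held 375 CPM (365 to 386) and knockout rods 506 CPM (495 to 518), from 4893 and 7341 UMIs. The log2 ratio was 0.43 (0.38 to 0.49). The rods of each deposited cluster gave the same direction, with 0.42, 0.29, 0.46 and 0.51 in clusters 0, 1, 2 and 3. The ratio was 0.25 in cones, 0.20 in BC and 0.12 in MG, and in AC it was 0.02 (-0.14 to 0.18). Kif1b and Bbs9, with more UMIs in rods, had ratios of -0.12 and 0.08 there. Bbs5 and Kif3b, both high in photoreceptors, were lower in rods of Ptbp1-KO, by ratios of -0.18 (-0.26 to -0.11) and -0.21 (-0.32 to -0.11), and each was below 0 in all 4 clusters. The interval left out 0 in every cluster for Bbs5 and in cluster 0 alone for Kif3b.

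In MG, 10 of 44 members had an interval below 0 and 1 an interval above it, in all 25.0% against 26.7% of all genes. Kif5b was the best counted of them, at 177 against 243 CPM, with a ratio of -0.46 (-0.58 to -0.34) from 1438 and 900 UMIs. Ift20, Ift27, Ift43 and Ift52 were below 0 there with ratios of -0.46 to -0.20, as were Bbs7, Bbs9, Dync2li1, Kif1c and Kif21b. Bbs9 in MG was at 18.3% of its rod level in Ptbp1-Ctrl, above the range of the rod marker genes, and at 14.2% in Ptbp1-KO, within it. In rods 9 members lay above 0 and 10 below, 37.3% of those compared against 36.5% of all genes. Kif1a in cones, from 53.9 to 80.7 CPM, had the ratio nearest to 1.5-fold without passing it, 0.58 (0.18 to 0.99).

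**Figure D5:**
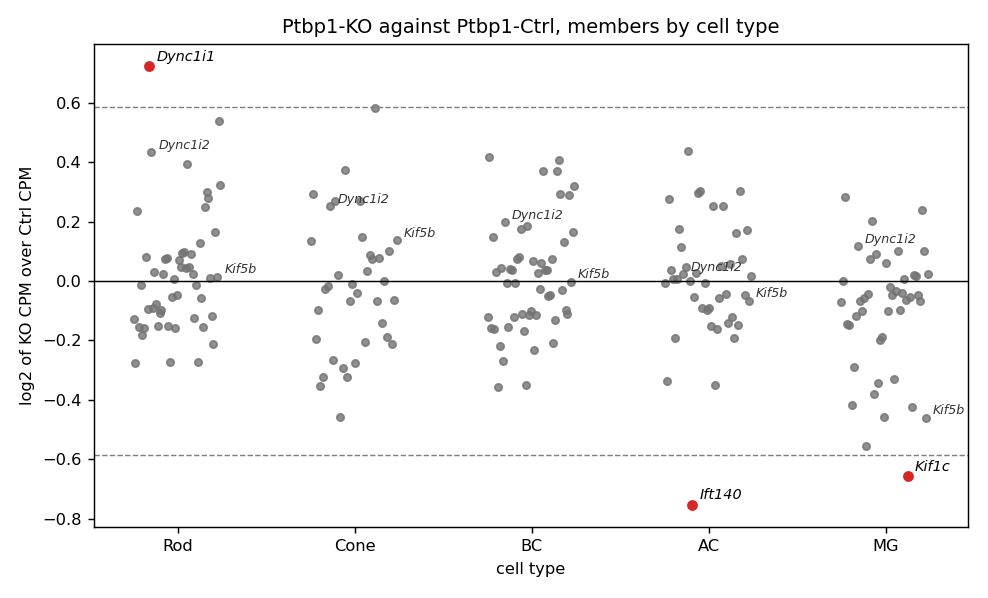
Log2 of Ptbp1-KO CPM over Ptbp1-Ctrl CPM for each member with at least 100 UMIs in the type, by cell type. Dashed lines mark 1.5-fold; the 3 red points past it are Dync1i1 in rods, Ift140 in AC and Kif1c in MG, and Dync1i2 and Kif5b are named in all types.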

How the data were processed

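Single-cell RNA sequencing (10x Genomics 3' version 3.1) of 1 Ptbp1-Ctrl and 1 Ptbp1-KO retina sample was used, with each sample's genotype taken from its labels. The authors aligned reads to mm10 with Cell Ranger 7.0.1 and kept, in Seurat, cells with above 200 and below 5000 genes, above 700 and below 10000 UMIs and a mitochondrial share under 20%. All 30943 deposited cells met this filter. The deposited tables hold raw UMI counts for 25778 genes without normalization, and per cell a mitochondrial percent, a cluster number and a cell type, which were used as deposited. The annotation, the use of intronic reads and strand in counting are not given in the sources used here, and no further doublets were removed. A further 2 columns of per-cell values were not used.

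UMIs were summed per library and type and expressed as CPM. Types, not cells, were compared, without tests. The study's Wilcoxon test over cells was not used, since cells of 1 animal are not replicates. Intervals at 95% (Poisson, conditional binomial, Clopper-Pearson) cover counting error only. A count of 0 was set to a floor of 3 UMIs in ratios. Calls were tested on simulated data with known changes. Gene positions are from GENCODE M21 (mm10), where all 68 members matched, and promoters from RefSeq (GRCm38.p6), where 54 matched. For the 8 genes with a sequence shown, the last 30 promoter bases were found in a transcript. Described in depth were the members with the highest and lowest photoreceptor ratio per role, all members called in cones against rods or between genotypes, and up to 5 genes per partner list by photoreceptor ratio. Others were chosen after their values were seen, among them the clusters, Dync1i2, Kif5b and the X-box genes. The members and lists were chosen with earlier results of these data known. Python 3.11.15, numpy 2.4.6, scipy 1.17.1 and pandas 2.3.3 were used. Some results of the partner and marker lists are not reported here.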

Additional observations from a re-analysis of the deposited data

How the results depend on the processing

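Counts of members were recomputed with 1 choice changed at a time. The share of all genes under each setting is not given here. The counts thus show how the calls depend on the setting and are no result about the members. The 13 members higher in photoreceptors became 22 after subtraction of a background with the profile of the whole library. They became 25 at 1.5-fold, 3 at 3-fold (Bbs5, Bbs9 and Kif9) and 8 with cones alone, and 12 to 18 under the other settings. The 5 lower became 3 at 3-fold (Dync1i1, Kif5a and Kif5c). The 19 above without overlap became 10 with RGC and HC among the other types, and the 4 below stayed at 4 in every setting. No member was higher in cones in the reported comparison, but 1 (Kif22) was without the tenth of cells with most UMIs, 1 (Kif22) with scaling by median ratios, 1 (Kif22) at 1.5-fold and 2 (Kif16bos and Kif4) with a minimum of 20 UMIs. The 7 higher in rods became 3 in cells thinned to 1000 UMIs, 11 after subtraction, 4 with a minimum of 400 UMIs and 13 at 1.5-fold. The 3 pairs past 1.5-fold between genotypes became 18 after thinning, 24 after subtraction, 5 without the tenth of cells with most UMIs, 21 with a minimum of 20 UMIs, 0 with a minimum of 400 UMIs, 29 at a lower fold and 0 at 2-fold. For the settings that change the fold or the minimum this follows from their construction; for the others the cause was not tested. The photoreceptor ratio of Kif20b turned to -0.91 with cones alone. Of 268 recomputed values of single members 189 moved by less than their counting interval, 78 by more, and 1 changed sign. Leaving out the cells whose barcode occurs in both libraries, an alternative chosen after seeing the data, changed no count. No paired analysis was possible because there is 1 library per genotype. Subtraction was made in each type, rods included. The background share was set by rod marker genes in the other types, as if all their rod RNA were free, and by markers of other types in rods. It gave RGC a share above their own total, so RGC values are limited by rod RNA. Scaling by median ratios moved the median of all genes by less than 0.1 on the log2 scale. Low counts limit Kif27, Kif20b, Kif26b and all members in RGC and HC.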

Other observations

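Between genotypes, a few genes of the partner lists also passed 1.5-fold, beside 3.27% to 6.69% of all genes depending on the type. Cep290, which builds the connecting cilium, was lower in MG of Ptbp1-KO, at 74.5 against 115 CPM, with a log2 ratio of -0.63 (95% interval for counting error -0.81 to -0.44). The fall was not particular to MG. Cep290 was at 467 against 523 CPM in rods, 282 against 372 in cones, 146 against 186 in BC and 128 against 168 in AC. Kifc1, a minus-end directed kinesin known from the spindle, was higher in rods of Ptbp1-KO, at 39.8 CPM (577 UMIs) against 21.3 CPM (278 UMIs), a ratio of 0.90 (0.69 to 1.11), and was the only 1 of 12 kinesin partners past 1.5-fold in rods. No dynein light chain or dynactin gene passed 1.5-fold in rods, BC, AC or MG, whereas Dynll2 and Dctn6 were lower in cones, with ratios of -0.64 (-1.01 to -0.28) and -0.62 (-1.03 to -0.22). These genes were named after their values were seen, and 1 library per genotype gives no replicate check.

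In HC and RGC, left out of the comparisons, the neuronal motor genes were detected despite few UMIs. Kif5c stood at 244 CPM (160.6 to 355, 27 UMIs) and 257 CPM (128 to 459, 11 UMIs) in HC. Dync1i1 stood at 117 CPM (62.5 to 201, 13 UMIs) and 257 CPM (128 to 459, 11 UMIs) there. Kif5a stood at 117 and 65.4 CPM in RGC, from 25 and 12 UMIs.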
